A study of Mus musculus with 300 samples.

Results

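Proliferation-high and proliferation-low cells were adult mouse ID4-EGFP+ spermatogonia chosen by their own transcripts of 5 genes of dividing cells, Mki67, Top2a, Cdk1, Ccnb1 and Plk1. The score was the mean log2(FPKM + 1) of these genes, where FPKM counts sequenced fragments relative to the length of the transcript and the size of the library. Within each of 4 preparations the cells were ranked by it and cut into 3 groups of near-equal size, of which the top and the bottom were compared, so that high and low cells came from the same animals and the same run. These held 22, 27, 23 and 26 cells per preparation, which gave 98 high and 98 low cells, with 104 in between, of 300 cells in all. Every cell was an untreated adult spermatogonium that carried the Id4-EGFP reporter, was sorted as CD9-bright and EGFP-positive, and was captured on a Fluidigm C1 chip. Each preparation pooled 2 or more mice, and strain and exact age are not given in the labels used here. The study binned the cells into quartiles of EGFP brightness, with Q1 for bright and Q4 for dim cells. The preparation was read from the run number in the cell titles and was the unit of replication throughout (n = 4), since cells of 1 preparation share their animals.

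The adult testis renews sperm from a small pool of undifferentiated spermatogonia, which divide by mitosis before their progeny turn on Kit, enter differentiation under retinoic acid and later begin meiosis. Genes of DNA replication are switched on ahead of S phase, largely by E2F factors. Genes of mitosis follow in G2, largely through the DREAM complex, MYB-MuvB and FOXM1, which act at the cell cycle homology region and at CCAAT boxes bound by NF-Y. The 5 genes of the score belong mainly to the later wave. Mki67 encodes the Ki-67 antigen of cycling cells, Top2a the topoisomerase that untangles sister chromatids, Cdk1 and Ccnb1 the kinase and cyclin that drive entry into mitosis, and Plk1 a kinase of spindle assembly and mitotic exit.

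Promoters of some genes in the score, and of genes outside it with the largest differences, are shown. Windows with these elements, and 1 without them, can so be read side by side. The sequences are from RefSeq on build GRCm38.p6, 5′ to 3′ on the gene's own strand, from 250 bases before to 50 bases after the start of the transcript. Capitals mark TTTGAA (the core of the cell cycle homology region), CCAAT, and the E2F sites TTTGGCGC or TTTCGCGC, on either strand, so that a match on the opposite strand reads TTCAAA or ATTGG.
Cdk1, chr10:69352863-69353162 (minus strand): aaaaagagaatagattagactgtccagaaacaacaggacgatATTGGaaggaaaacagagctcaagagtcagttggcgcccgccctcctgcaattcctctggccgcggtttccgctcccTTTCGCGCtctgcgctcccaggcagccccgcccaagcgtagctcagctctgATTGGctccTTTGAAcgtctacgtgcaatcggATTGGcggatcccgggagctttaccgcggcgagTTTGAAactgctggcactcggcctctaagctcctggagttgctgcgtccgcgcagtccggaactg
Plk1, chr7:122159185-122159484 (plus strand): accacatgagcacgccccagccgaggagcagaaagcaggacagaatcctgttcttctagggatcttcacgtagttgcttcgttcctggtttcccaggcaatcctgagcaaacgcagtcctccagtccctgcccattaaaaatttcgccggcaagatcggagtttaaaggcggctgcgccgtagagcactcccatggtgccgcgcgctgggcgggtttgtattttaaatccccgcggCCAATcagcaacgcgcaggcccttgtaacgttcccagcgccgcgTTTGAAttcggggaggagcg
Top2a, chr11:99024140-99024439 (minus strand): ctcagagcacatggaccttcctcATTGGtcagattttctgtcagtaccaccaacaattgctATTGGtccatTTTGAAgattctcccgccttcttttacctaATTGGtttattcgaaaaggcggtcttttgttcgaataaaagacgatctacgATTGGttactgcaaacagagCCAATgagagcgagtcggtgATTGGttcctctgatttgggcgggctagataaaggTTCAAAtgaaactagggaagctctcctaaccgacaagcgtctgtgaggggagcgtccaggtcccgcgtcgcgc
Prc1, chr7:80294201-80294500 (plus strand): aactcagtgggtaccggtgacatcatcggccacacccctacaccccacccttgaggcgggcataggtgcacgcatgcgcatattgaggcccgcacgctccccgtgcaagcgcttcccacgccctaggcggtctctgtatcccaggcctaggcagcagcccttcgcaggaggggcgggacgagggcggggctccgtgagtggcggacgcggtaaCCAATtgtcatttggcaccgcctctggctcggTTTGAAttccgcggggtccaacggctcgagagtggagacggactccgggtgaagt
Aurka, chr2:172370521-172370820 (minus strand): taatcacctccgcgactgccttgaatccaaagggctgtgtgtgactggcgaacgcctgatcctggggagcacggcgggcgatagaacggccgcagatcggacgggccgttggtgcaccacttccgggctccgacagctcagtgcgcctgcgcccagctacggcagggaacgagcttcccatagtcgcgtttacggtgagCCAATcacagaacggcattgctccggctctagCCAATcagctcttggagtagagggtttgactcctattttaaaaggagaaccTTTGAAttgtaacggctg
Ube2c, chr2:164769679-164769978 (plus strand): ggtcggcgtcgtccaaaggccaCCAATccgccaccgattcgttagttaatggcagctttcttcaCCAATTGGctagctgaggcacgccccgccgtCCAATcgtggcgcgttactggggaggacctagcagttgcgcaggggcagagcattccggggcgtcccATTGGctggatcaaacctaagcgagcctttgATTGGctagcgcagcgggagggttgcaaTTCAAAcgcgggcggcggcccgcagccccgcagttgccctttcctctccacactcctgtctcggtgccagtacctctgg
Birc5, chr11:117848987-117849286 (plus strand): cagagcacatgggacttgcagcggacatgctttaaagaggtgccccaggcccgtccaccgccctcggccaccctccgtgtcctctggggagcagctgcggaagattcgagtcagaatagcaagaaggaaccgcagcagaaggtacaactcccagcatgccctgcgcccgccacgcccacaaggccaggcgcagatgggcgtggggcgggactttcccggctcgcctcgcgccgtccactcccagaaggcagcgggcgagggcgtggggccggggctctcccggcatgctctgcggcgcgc
In the Ube2c promoter a CCAAT and an ATTGG overlap. The Birc5 window holds none of the 3 motifs, which says only that these letters are not in that window. Among windows not shown, that of Nusap1 also holds none, those of Ccnb1 and Prim1 hold CCAAT alone, and that of Mki67 holds TTTGAA and CCAAT. RefSeq promoters were matched for 91 of the 116 names in 5 lists of mitotic genes together with the score. TTTGAA occurred in 54.9% of these 91 genes, against 20.2% of all 27025 genes with a promoter. CCAAT occurred in 65.9% against 41.1%, and both motifs in 42.9% against 7.97%. The 35 matched genes of the 44 in the replication list differed in their letters, with TTTGAA in 20% and an E2F site in 31.4%. That E2F site stood in 4.40% of the mitotic genes, in 0.929% of all genes and in 2.03% of the tested genes with a promoter. These shares describe the letters in the windows and do not show binding.

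The score itself describes how the cells were chosen, so the values of its genes are given with no test. The score averaged 5.73 ± 0.25 (SD over 4 preparations) in high cells, 3.86 ± 0.53 in middle cells and 1.86 ± 0.41 in low cells. The cuts ran through a continuous range, without a gap. The lowest scores among high cells were 4.32, 4.66, 4.26 and 5.28 in preparations 1 to 4, and the highest scores just below the cut were 4.30, 4.65, 4.16 and 5.24. At the lower cut, the highest scores among low cells were 2.97, 3.07, 2.56 and 3.65, and the lowest just above it were 3.08, 3.13, 2.56 and 3.79.

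The plot of the score by preparation shows that the 5 genes did not part the groups in the same way. Top2a and Ccnb1 were detected (1 FPKM or more) in nearly all high and middle cells and in most low cells. Top2a averaged 6.85, 7.54, 7.81 and 7.21 in high cells of preparations 1 to 4, and 2.15, 3.39, 2.39 and 3.76 in low cells, on the log2(FPKM + 1) scale. Ccnb1 averaged 6.78, 6.94, 6.58 and 7.11 in high cells and 3.10, 4.07, 3.39 and 4.52 in low cells. It was still detected in 78 of 98 low cells, so that few low cells lacked it. Cdk1 averaged 5.19, 5.30, 5.63 and 5.38 in high cells and 1.59, 1.53, 0.55 and 2.15 in low cells. Mki67 averaged 4.49, 4.70, 4.57 and 5.17 in high cells and 0.59, 0.64, 0.27 and 1.18 in low cells. Mki67 was detected in 94 high cells, 69 middle cells and 19 low cells. Plk1 parted the high cells from the middle cells, though less so in preparation 4, where 18 of 28 middle cells had it at a mean of 2.37. It was detected in 83 of 98 high cells, 32 of 104 middle cells and 13 of 98 low cells, with high-cell means of 3.92, 4.61, 3.58 and 5.33 and low-cell means of 0.46, 0.54, 0.78 and 0.14.

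**Figure D1:**
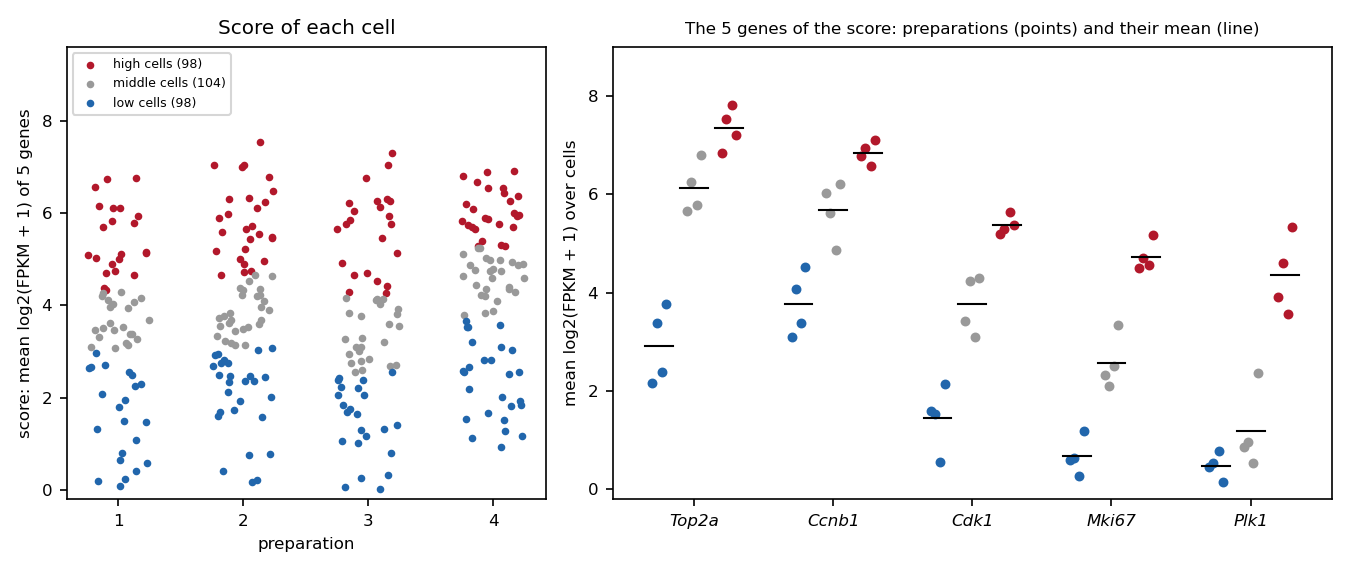
Left, the score of each of the 300 cells (mean log2(FPKM + 1) of the 5 genes) by preparation, with high cells in red, middle cells in grey and low cells in blue. Right, the mean of each gene of the score in each group, with 1 point per preparation and a line at the mean of the 4. Plk1 is near 0 in low cells and in most middle cells, while Top2a and Ccnb1 are already high in middle cells.

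Both groups carried germ cell transcripts. Uchl1 and Dazl were detected in every high and every low cell, and Ddx4, the germ cell helicase, in 100% of high and 98.98% of low cells. Zbtb16, which encodes the PLZF factor of undifferentiated spermatogonia, was detected in 90.8% of high and 88.8% of low cells. Cells that carried at least 3 markers, and at least 50% of the list, of another cell type at 5 FPKM or more numbered 4 among high cells and 3 among low cells, mostly of the macrophage and spermatid lists. Macrophage marker FPKM summed to a median of 1.59 in high cells (0 to 4211) and 0 in low cells (0 to 11960). Spermatid markers summed to 27.9 (0 to 653) and 22.6 (0 to 672), and pachytene spermatocyte markers to 65.4 (0 to 227) and 44.5 (0.371 to 377). The summed Sertoli, Leydig, myoid, endothelial and erythroid markers had a median of 0 in both groups. The defining Sertoli markers Amh and Cldn11, the Leydig markers Cyp11a1, Cyp17a1 and Hsd3b1, and the erythroid marker Hba-a1 were at 0 in every high and every low cell. Without the cells that matched another list, which was an alternative chosen after seeing the data, 704 genes were higher and 41 lower in high cells.

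High cells had more genes detected. The mean number of genes at 1 FPKM or more was 4660, 6074, 5904 and 6492 in high cells of preparations 1 to 4, and 4037, 5525, 5117 and 5756 in low cells. High cells thus held 673.8 ± 108 (SD, n = 4) more, in 4 of 4 preparations (exact sign-flip permutation test, two-sided, p = 0.125, the smallest that 4 preparations allow). An estimate of read depth did not go the same way. It was taken from the low edge of a cell's FPKM values, over genes seen in only a part of the cells. The estimate can also move with which genes a cell expressed, and is not a count of reads. Relative sequencing depth by this estimate was 0.953 ± 0.207 in high cells and 1.08 ± 0.23 in low cells, lower in 4 of 4 preparations (p = 0.125, same exact test). The summed FPKM was 493220 ± 17707 in high and 465938 ± 23509 in low cells, higher in 3 of 4 preparations (p = 0.25). Over single cells, the score and the number of genes detected correlated at a Pearson r of 0.416, 0.238, 0.427 and 0.415 within the 4 preparations, a description in which both come from the same library. Fewer cells with a transcript and less of it per cell cannot be told apart in the means below.

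A second grouping was therefore set beside the first, cut on the residual of the score after regression on genes detected within each preparation. Its high and low cells held 5473 ± 783 and 5430 ± 730 genes per cell, a difference of 43.02 ± 78.5 that was positive in 2 of 4 preparations. It is called the detection-matched grouping below, and is matched on genes detected alone. Summed FPKM was still higher in its high cells, by 26776 ± 21773, in 4 of 4 preparations. Relative sequencing depth still differed by -0.092 ± 0.073, lower in 4 of 4. The plot of genes detected by group shows both groupings.

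**Figure D2:**
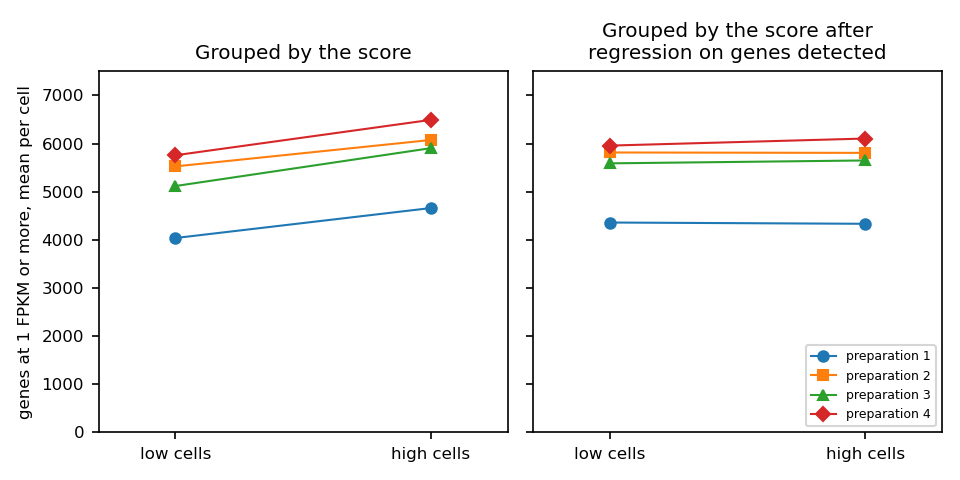
Mean number of genes at 1 FPKM or more per cell in low and high cells of each preparation (1 line per preparation), grouped by the score (left) and by the score after regression on genes detected (right). On the left all 4 lines rise from low to high; on the right 2 of 4 do.

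All other genes were compared by limma on the 12 means of 4 preparations by 3 groups, with the preparation as a block. Of 10406 genes that reached 1 FPKM in at least 30 cells, 788 were higher and 50 lower in high cells at a Benjamini-Hochberg adjusted p under 0.05, that is 7.57% and 0.48% of genes tested. The median difference over all tested genes was 0.20 on the log2 scale, so levels were shifted upwards in high cells in general, and the differences below are to be read against that shift. Centring each mean on its own median left 253 genes higher (2.43%) and 201 lower (1.93%), a split of 55.7% higher in place of 94.03%. The detection-matched grouping, where the median gene differed by 0.01, called 207 higher (1.99%) and 68 lower (0.653%), 2.64% in all. It shared 206 of the 788 higher genes and 30 of the 50 lower genes, which is 26.1% and 60% of those lists and 99.5% and 44.1% of its own. Without the preparation as a block, 104 genes were higher and 4 lower. With genes detected entered as a covariate, 0 genes passed in either direction (468 at an unadjusted p under 0.05), with standard errors 4.97 times larger at the median. Leaving out preparations 1, 2, 3 or 4 gave 538, 396, 377 and 415 higher genes and 34, 11, 21 and 20 lower genes. Among the 788 higher genes, 92.8% had middle cells between low and high cells. The other genes were read in the same libraries as the score, so these p-values measure only how steadily a gene moved with the score over preparations. Genes of the cell cycle outside the 5 mitotic lists also move with the markers through the choice of cells. Where a p-value is given for them, it describes the grouping and is no further support.

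Genes of mitosis made up the largest differences. They move with the markers through the choice of cells, so their values describe what the high cells are and are given with no p. Of the 107 tested members of the 5 mitotic lists, 104 were higher in high cells, 85 of them in all 4 preparations, and the median difference was 1.69. Of all 10406 tested genes, 7356 were higher in high cells, 2518 of them in all 4 preparations. In the fit, 81 passed as higher and 0 as lower, beside 7.57% and 0.48% of all genes, and nothing is read from these shares.

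Spindle and cytokinesis genes led. Prc1, which bundles the microtubules of the central spindle, averaged 6.30, 6.89, 6.34 and 7.36 in high cells of preparations 1 to 4 and 1.97, 2.90, 1.85 and 3.40 in low cells. The groups lay far apart, with a difference of 4.19 ± 0.31 (SE), and the middle cells stood between them at 4.37 ± 1.31 (SD). Birc5, which encodes survivin of the chromosomal passenger complex, averaged 6.74, 7.17, 6.67 and 7.55 in high cells and 1.58, 3.41, 3.38 and 4.13 in low cells, a difference of 3.90 ± 0.32. Nusap1, a microtubule stabilizer, differed by 3.37 ± 0.33, and Kif20a, a kinesin of cytokinesis, by 2.84 ± 0.30. The list of 27 tested genes had a median of 2.10 and ran from 0.51 to 4.19.

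Among mitotic kinases and cyclins, the median over 20 genes was 1.92. Aurka, the centrosomal Aurora kinase, averaged 4.59, 5.58, 4.03 and 6.57 in high cells and 2.19, 1.78, 1.04 and 2.22 in low cells, a difference of 3.38 ± 0.37. The cyclins Ccna2 and Ccnb2 differed by 3.29 ± 0.35 and 2.74 ± 0.27. Wee1, the kinase that restrains Cdk1, was also higher in high cells, by 2.62 ± 0.30, so both the activators and this inhibitor of Cdk1 stood higher. For the anaphase-promoting complex and its regulators the median over 17 genes was 0.53, and 3 regulators had the largest differences. Ube2c, the ubiquitin-conjugating enzyme of the complex, averaged 6.36, 6.77, 5.95 and 7.77 in high cells and 2.90, 2.58, 3.14 and 3.04 in low cells. It differed by 3.79 ± 0.41, its co-activator Cdc20 by 2.75 ± 0.32 and its inhibitor Fbxo5 by 2.21 ± 0.28, while the subunit Anapc5 differed by 1.17 ± 0.31. The regulators Fzr1 and Ube2s, named after their values were seen, differed by 1.02 and 0.18.

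Kinetochore and centromere genes had a median of 1.64 over 23 genes. The outer kinetochore genes Nuf2, Spc25 and Ndc80 differed by 2.83 ± 0.38, 2.47 ± 0.29 and 2.29 ± 0.26, and the centromeric histone Cenpa by 2.53 ± 0.30. Condensation and cohesion genes differed less, with a median of 1.32 over 20 genes. Among them were the cohesin acetyltransferase Esco2 (2.57 ± 0.31), the condensin subunits Ncaph (1.90 ± 0.34) and Smc4 (1.70 ± 0.32), and sororin, Cdca5 (1.89 ± 0.33). In the detection-matched grouping the median of the 107 mitotic genes was 1.25, against 1.69.

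Several of these genes overlap another gene's exons on the opposite strand in the GENCODE annotation of GRCm38, and the cDNA kit does not mark strand, so reads of the overlap cannot be told apart. Where the partner was tested it differed far less than the mitotic gene. Rccd1, opposite Prc1, differed by 0.24 ± 0.19, Exosc9, opposite Ccna2, by 0.18 ± 0.34, and Elovl1, opposite Cdc20, by -0.24 ± 0.21. Oip5, opposite Nusap1, differed by 0.83 ± 0.31.

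**Figure D3:**
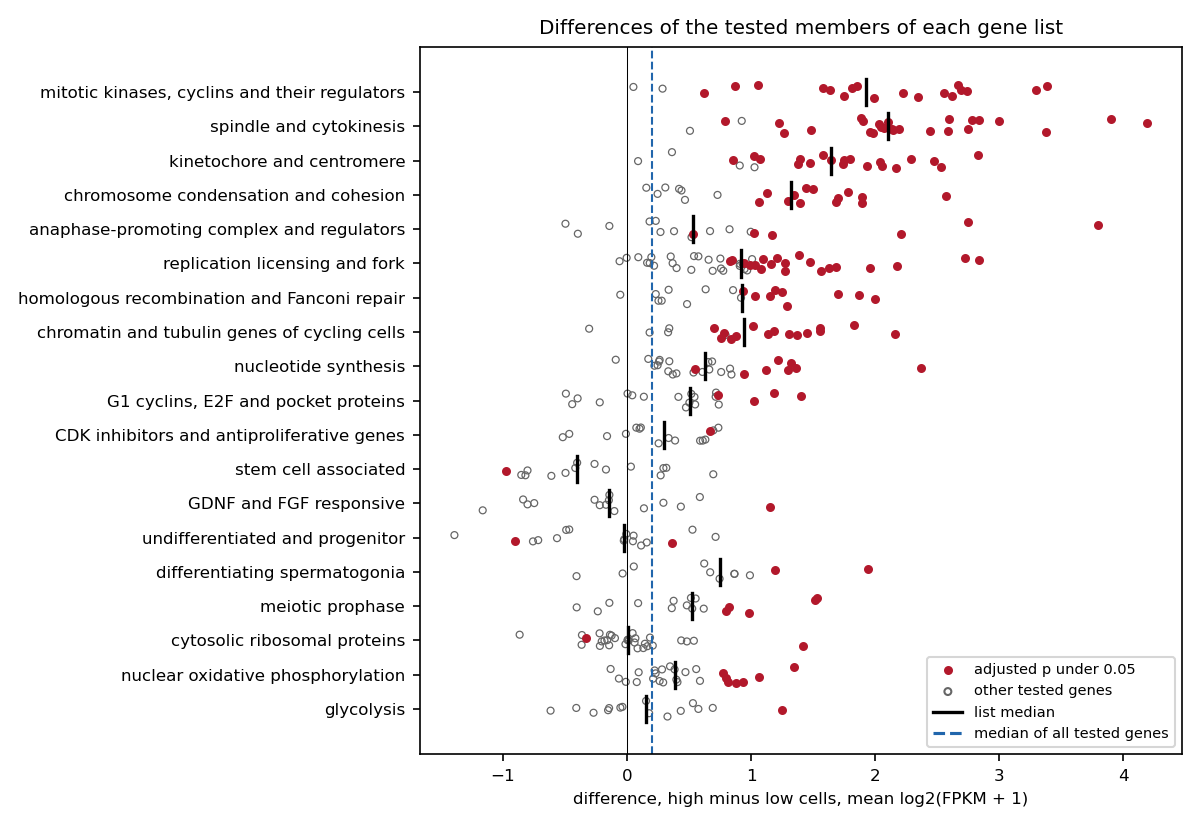
Difference between high and low cells (high minus low, mean log2(FPKM + 1) over 4 preparations) for each tested member of 19 gene lists. Red points passed an adjusted p under 0.05, open points did not, black bars are list medians and the dashed line is the median of all tested genes at 0.20. The medians of the 5 mitotic lists lie to the right of the dashed line, and the stem cell associated list has its median to the left of 0.

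Replication genes were higher in high cells too, though by less. They are genes of dividing cells as well, so their p-values describe the choice of cells and support nothing beyond it. Of 44 genes of licensing and the replication fork, 20 rose and 0 fell (7.57% and 0.48% of all genes), with a median of 0.92, and 8 rose in the detection-matched grouping, where 1.99% of all genes did. Prim1, the catalytic subunit of primase, averaged 5.36, 6.03, 6.32 and 6.57 in high cells and 3.03, 3.54, 2.86 and 3.50 in low cells. The groups did not overlap, as for 8.04% of all genes, and Prim1 rose by 2.84 ± 0.30 (limma adjusted p = 5.19e-06). Gmnn, geminin, which blocks relicensing of origins after they fire, averaged 7.14, 7.58, 8.18 and 7.97 in high cells and 5.05, 4.48, 4.30 and 6.14 in low cells, a rise of 2.72 ± 0.33 (limma adjusted p = 2.37e-05). Cdc45, a part of the replicative helicase, rose by 2.17 ± 0.36 (limma adjusted p = 0.000742), although it shares exonic sequence with Ufd1 on the opposite strand, listed here as Ufd1l, whose own difference of 0.70 ± 0.29 did not pass. Mcm3, a subunit of the MCM helicase, averaged 6.64, 7.00, 7.03 and 6.42 in high cells and 4.94, 5.80, 4.87 and 5.60 in low cells, a rise of 1.47 ± 0.25 (limma adjusted p = 0.000798).

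Middle cells are described without a test. Between low and middle cells the median replication gene differed by 0.75, and between middle and high cells by 0.14, where the steps of the median gene of all those tested were 0.14 and 0.07. Of the 44 replication genes, 18 (40.9%) were lower in high than in middle cells, as were 40.3% of all genes. The 2 steps were 1.08 and 1.09 for mitotic kinases and cyclins, 0.90 and 1.25 for spindle genes, 0.79 and 0.73 for kinetochore genes, 0.55 and 0.64 for condensation genes and 0.35 and 0.35 for the anaphase-promoting complex. In these 5 lists 1 of 20, 0 of 27, 2 of 23, 1 of 20 and 3 of 17 genes were lower in high than in middle cells. Rrm2, the small subunit of ribonucleotide reductase, averaged 3.83 ± 0.76 in high cells, 3.74 ± 0.61 in middle cells and 1.46 ± 0.69 in low cells (SD, n = 4). In preparation 1 it was 2.94 in high and 3.81 in middle cells, so the order of those 2 groups was not the same in all preparations. The test of high against low gave a rise of 2.37 ± 0.34 (limma adjusted p = 0.000176).

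Of 26 nucleotide synthesis genes, 8 rose and 0 fell (7.57% and 0.48% of all genes), with a median of 0.63. Ctps, which makes CTP, rose by 1.36 ± 0.27 (limma adjusted p = 0.0033), Umps, which makes UMP, by 1.32 ± 0.28 (0.00562) and Rrm1, the large subunit of ribonucleotide reductase, by 1.22 ± 0.26 (0.00678). In the detection-matched grouping 1 of the 26 rose (1.99% of all genes), and these 3 did not pass (adjusted p of 0.147, 0.11 and 0.0624). Of 18 tested genes of homologous recombination and Fanconi repair, which mend breaks and crosslinks at replication forks, 9 rose and 0 fell (7.57% and 0.48% of all genes), with a median of 0.93, and 2 rose in the detection-matched grouping (1.99% of all genes). Fancd2, which is loaded onto DNA at crosslinks, averaged 2.28, 3.56, 3.56 and 4.04 in high cells and 1.76, 1.74, 1.03 and 2.11 in low cells. The groups did not overlap, and Fancd2 rose by 1.70 ± 0.33 (limma adjusted p = 0.00283), but did not pass in the detection-matched grouping (0.0568). Its exons overlap Fancd2os on the opposite strand. Of 5 tested DNA methylation genes 2 rose and 0 fell (7.57% and 0.48% of all genes). They were Uhrf1 and Dnmt1, which copy DNA methylation to new strands, at 1.25 ± 0.26 and 1.17 ± 0.29 (limma adjusted p = 0.00548 and 0.017). Neither passed in the detection-matched grouping (limma adjusted p = 0.0756 and 0.149). Dnmt1 also did not pass without preparation 1, 2 or 3 (0.0611 to 0.0909).

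Of 20 chromatin and tubulin genes of cycling cells, 15 rose and 0 fell (7.57% and 0.48% of all genes), with a median of 0.95. The list was made of genes of cycling cells, so its counts and p-values also describe the choice of cells. In the detection-matched grouping 10 rose (1.99% of all genes), and 8 did once means were centred (2.43% of all genes). Tubb4b, a beta-tubulin, averaged 9.56, 9.88, 9.46 and 9.65 in high cells and 6.91, 7.97, 7.36 and 7.66 in low cells. The groups did not overlap and the rise was 2.16 ± 0.18 (limma adjusted p = 3.31e-07). Fam166a, on its opposite strand, differed by 0.39 ± 0.14. Stmn1, stathmin, which destabilizes microtubules, averaged 9.97, 9.74, 9.75 and 9.70 in high cells and 8.05, 8.57, 8.10 and 8.96 in low cells, a rise of 1.37 ± 0.15 (limma adjusted p = 9.8e-06). Hmgb2, a chromatin protein, rose by 1.55 ± 0.27 (limma adjusted p = 0.00138). Tubulin and Hmgb genes have near-identical copies elsewhere in the genome, so their single values are uncertain.

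The genes that gate entry into S phase moved less. Of 20 tested G1 cyclins, E2F factors and pocket proteins, 4 rose and 0 fell (7.57% and 0.48% of all genes), with a median of 0.51. In the detection-matched grouping 0 passed in either direction (limma), where 1.99% and 0.653% of all genes did. Ccne2, the E2 cyclin, averaged 2.57, 2.23, 3.23 and 3.55 in high cells and 0.96, 1.25, 1.04 and 2.71 in low cells, which overlap only through preparation 4. It rose by 1.41 ± 0.30 (limma adjusted p = 0.00548), and its partner kinase Cdk2 rose by 1.19 ± 0.32 (0.0271). Cdc25a, the phosphatase that activates Cdk2, and E2f7, a repressor among the E2F factors, rose by 1.03 ± 0.28 and 0.74 ± 0.21 (limma adjusted p = 0.029 and 0.0306). None of the 4 passed in every fit that left out 1 preparation: Ccne2 did not without preparation 3 (0.0595), and the other 3 each failed in 3 of 4 such fits. Ccne2 overlaps exons of Ints8 on the opposite strand, which differed by 0.43 ± 0.32. The D cyclins, which answer growth factors, did not pass and did not share a sign. Ccnd1 differed by 0.72 ± 0.33, Ccnd2 by -0.22 ± 0.27 and Ccnd3 by -0.44 ± 0.31 (limma adjusted p = 0.197, 0.672 and 0.41).

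Of 16 tested inhibitors of cyclin-dependent kinases and other antiproliferative genes, 1 rose and 0 fell (7.57% and 0.48% of all genes). That is near the shares of all genes, and nothing is read from it. The median was 0.30, close to that of all genes, or 0.03 once means were centred. Centring left 0 higher and 1 lower (2.43% and 1.93% of all genes). The lower gene was Txnip, at -0.78 (limma adjusted p = 0.0227). Uncentred it differed by -0.52 ± 0.19, lower in 4 of 4 preparations, and did not pass (limma adjusted p = 0.104). Cdkn1b, which encodes p27, averaged 1.31, 2.35, 2.11 and 1.50 in high cells and 0.91, 2.62, 2.12 and 1.64 in low cells. The values overlap throughout, and the difference was -0.01 ± 0.28 (limma adjusted p = 0.991). Cdkn1a, which encodes p21, was the gene that rose, by 0.67 ± 0.19 (limma adjusted p = 0.0346), but not in the detection-matched grouping (0.451) or without preparation 1, 2 or 3 (0.0969, 0.0897 and 0.232).

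Of 15 tested stem cell associated genes, 0 rose and 1 fell (7.57% and 0.48% of all genes), and their median was -0.40 where that of all genes was 0.20. The gene that fell was T, which encodes Brachyury. It averaged 0, 1.00, 0.41 and 0.87 in high cells and 0.94, 1.46, 2.43 and 1.34 in low cells, a difference of -0.97 ± 0.24 (limma adjusted p = 0.017), which did not pass without preparation 1 (0.0628) or 3 (0.138). Gfra1, the GDNF co-receptor, averaged 2.91, 2.44, 2.88 and 1.68 in high cells and 2.04, 4.36, 3.50 and 3.41 in low cells. It was higher in high cells of preparation 1 and lower in the other 3, and its difference of -0.85 ± 0.39 did not pass (limma adjusted p = 0.191). Etv5, an effector of GDNF and FGF signals, differed by -0.80 ± 0.39 (limma adjusted p = 0.222) with the same exception. Without preparation 1, Gfra1 differed by -1.42 and passed (limma adjusted p = 0.0218), so that preparation decided its call. In the detection-matched grouping Gfra1 differed by -0.90 and did not pass (limma adjusted p = 0.252). Nanos2, Bcl6b and Eomes were low in both groups and did not pass, at -0.40 ± 0.22, -0.17 ± 0.24 and 0.03 ± 0.24. Id1 was detected in 20 cells and was not tested.

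Sall4 was the clearest of the undifferentiated markers. This zinc finger factor of spermatogonia averaged 6.60, 7.00, 7.04 and 7.39 in high cells of preparations 1 to 4 and 7.97, 8.10, 7.80 and 7.78 in low cells. All 4 low means were above all 4 high means, and Sall4 fell by 0.90 ± 0.21 (difference -0.90, limma adjusted p = 0.00976). It also passed in the detection-matched grouping, at -0.84 (limma adjusted p = 0.0233), and did not without preparation 2 (-0.84, 0.0589). Its exons overlap the predicted gene Gm14261 on the opposite strand. In that grouping 4 of the 17 tested undifferentiated and progenitor genes fell, where 0.653% of all genes did. Besides Sall4 these were Nanos3 (-1.78, limma adjusted p = 0.0349), Upp1 (-1.41, 0.0258) and Neurog3 (-0.80, 0.0207). Grouped by the score itself, these 3 differed by -1.39 ± 0.47, -0.76 ± 0.35 and -0.49 ± 0.19 and did not pass (0.0739, 0.2 and 0.112). By the score, 1 of the 17 fell and 1 rose (0.48% and 7.57% of all genes). The gene that rose was Dazl, by 0.37 ± 0.10 (limma adjusted p = 0.0243). Dazl no longer passed when means were centred or in the detection-matched grouping (limma adjusted p = 0.595 and 0.0712), nor without preparation 2, 3 or 4 (0.102 to 0.136).

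Genes that respond to GDNF and FGF had a median of -0.14 over 15 tested members, where that of all genes was 0.20. Of the 15, 1 rose and 0 fell (7.57% and 0.48% of all genes). Dusp6, a phosphatase that dampens ERK signals, averaged 3.71, 3.53, 3.30 and 2.76 in high cells and 3.43, 4.83, 5.39 and 4.31 in low cells. It was lower in high cells of 3 of 4 preparations, by a mean of -1.16 ± 0.38 (limma adjusted p = 0.0637), and passed in the detection-matched grouping at -1.21 (0.0385) and without preparation 1 at -1.64 (0.0171). The gene that rose was Fos, an immediate early gene, by 1.15 ± 0.35 (limma adjusted p = 0.0468), which did not pass in the detection-matched grouping (0.406) or in any of the 4 fits that left out 1 preparation (0.0734 to 0.173). Tcl1, a co-activator of AKT from the stem cell associated list, differed by -0.82 ± 0.32 (0.119), by -1.46 in the detection-matched grouping (limma adjusted p = 0.0116) and by -1.16 without preparation 1 (0.0304). In the detection-matched grouping T and Tcl1 were the 2 of 15 tested stem cell associated genes that fell (0.653% of all genes).

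Genes of differentiating spermatogonia had a median of 0.75 over 11 tested members, where that of all genes was 0.20, and 2 rose and 0 fell (7.57% and 0.48% of all genes). Crabp1, a cytosolic binder of retinoic acid, averaged 6.34, 7.56, 7.76 and 8.21 in high cells and 5.49, 6.16, 4.13 and 6.32 in low cells. The 4 high means were above the 4 low means, and the rise was 1.95 ± 0.30 (limma adjusted p = 0.000308), or 1.41 (0.0108) in the detection-matched grouping. Middle cells stood at 7.55 ± 0.60, level with high cells at 7.47 ± 0.80. Stra8, which retinoic acid induces ahead of meiosis, averaged 4.53, 3.73, 3.97 and 6.74 in high cells and 4.10, 3.06, 2.16 and 4.85 in low cells. It was higher in high cells of each preparation, but the groups overlapped, since low cells of preparations 1 and 4 stood above high cells of preparations 2 and 3. Its rise of 1.20 ± 0.31 (limma adjusted p = 0.0221) shrank to 0.24 (0.769) in the detection-matched grouping, and did not pass without preparation 3 (0.125) or 4 (0.157). Kit, the receptor that marks differentiating spermatogonia, differed by 0.87 ± 0.27 and did not pass (limma adjusted p = 0.0528). Without preparation 1, Kit passed (1.08, limma adjusted p = 0.0498). In the detection-matched grouping Kit differed by 0.36 and did not pass (limma adjusted p = 0.558). Of 23 alternative fits, 17 gave Kit no call. Crabp1 and Stra8 were also the 2 of 11 tested retinoic acid pathway genes that rose (7.57% of all genes). The median of that list was 0.18, or -0.09 once means were centred.

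**Figure D4:**
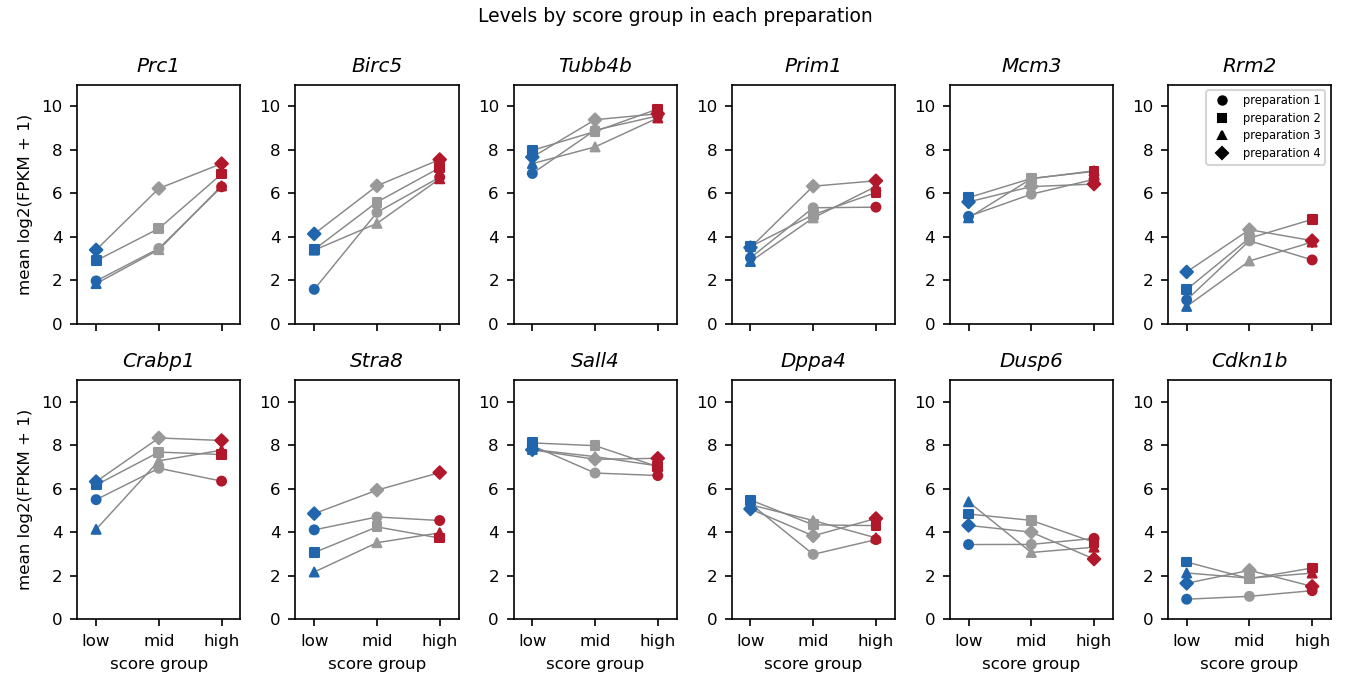
Mean log2(FPKM + 1) of 12 genes in low, middle and high cells (blue, grey and red), with 1 symbol and line per preparation. Prc1 climbs at both steps in every preparation, Mcm3 and Rrm2 mainly from low to middle, Sall4 is higher in the low cells of all 4 preparations, and Cdkn1b shows no common direction.

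As shares of cells with a transcript, Stra8 was detected in 72.7%, 70.4%, 60.9% and 92.3% of high cells and 59.1%, 55.6%, 43.5% and 65.4% of low cells. The share was higher in high cells of 4 of 4 preparations, by 18.2 ± 6.0 percentage points (SD; exact sign-flip permutation test, two-sided, p = 0.125, the smallest possible). In the detection-matched grouping the difference was 8.92 ± 9.45 points. Kit was detected in 37.7% of high and 19.2% of low cells, a difference of 18.5 ± 18.5 points (exact p = 0.25), and Gfra1 in 52.6% and 60.2%, a difference of -7.54 ± 24.6 points (exact p = 0.625). Cells with Gfra1 and without Kit made up 38.1% of high and 50.5% of low cells, and cells with Kit and without Gfra1 23.1% and 9.55%. Each of these last 2 differences had the same sign in 3 of 4 preparations, and their SD over preparations, 18.1 and 11.7 points, was about as large as the differences themselves, -12.5 and 13.5 points. In the detection-matched grouping the Kit share differed by 5.28 ± 16.7 points, positive in 2 of 4 preparations, and the Gfra1 share by -11.3 ± 28.6 points. There the cells with Gfra1 and without Kit differed by -8.45 ± 13.3 points, and those with Kit and without Gfra1 by 8.16 ± 15.9. No class of spermatogonia by Gfra1 and Kit was thus confined to either group.

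Some meiotic prophase genes rose. Of 16 tested, 5 rose and 0 fell (7.57% and 0.48% of all genes), with a median of 0.52, and 3 rose in the detection-matched grouping (1.99% of all genes). Dmc1, the meiotic recombinase, averaged 2.63, 2.92, 2.94 and 4.32 in high cells and 1.47, 1.69, 1.20 and 2.34 in low cells, without overlap, and rose by 1.53 ± 0.29 (limma adjusted p = 0.00239). Hormad1, which sits on meiotic chromosome axes, rose by 1.52 ± 0.34 (limma adjusted p = 0.00862), and did not pass without preparation 2 (0.0664) or 3 (0.0734). Hspa2, a chaperone of spermatocytes, was 1 of 4 tested pachytene markers and rose by 1.75 ± 0.31 (limma adjusted p = 0.00138). Piwil1 and Ldhc, which mark pachytene cells, did not pass, at 0.16 ± 0.18 and 0.00 ± 0.17. Of 5 tested spermatid markers 0 rose and 0 fell in limma (7.57% and 0.48% of all genes). The same held in the detection-matched grouping (1.99% and 0.653% of all genes). With so few markers, nothing is read from these counts.

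Outside the mitotic lists, the 12 genes with the largest rises included further genes of the cell cycle and some with other roles. Cdca3, a trigger of mitotic entry, averaged 6.26, 5.98, 5.37 and 6.13 in high cells and 2.29, 2.94, 3.33 and 3.41 in low cells. It differed by 2.94 ± 0.32. Cdkn3, a phosphatase that acts on Cdk1 and Cdk2, differed by 2.32 ± 0.33. Like the mitotic lists, these 2 genes move with the markers through the choice of cells, so their values are given with no p. Dnajc9, a histone co-chaperone, rose by 2.40 ± 0.35 (limma adjusted p = 0.000195). Tuba3b, a testis alpha-tubulin, averaged 8.96, 9.53, 9.35 and 9.32 in high cells and 6.97, 7.24, 5.45 and 7.45 in low cells, a rise of 2.52 ± 0.24 (limma adjusted p = 2.5e-06). Its near-identical copy Tuba3a makes the split between the copies uncertain.

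Rbm44, an RNA-binding protein of germ cell intercellular bridges, averaged 5.59, 4.83, 5.09 and 5.19 in high cells and 2.46, 2.37, 2.79 and 2.93 in low cells. The groups were well apart and the rise was 2.54 ± 0.32 (limma adjusted p = 3.85e-05). Trim59, a ubiquitin ligase, rose by 2.65 ± 0.33 (3.62e-05), and Bex1, a small adaptor protein, by 2.17 ± 0.41 (limma adjusted p = 0.00226). Ormdl1, a regulator of sphingolipid synthesis, rose by 2.26 ± 0.29 (limma adjusted p = 3.85e-05). Of the 12, Ormdl1 was the one that did not pass in the detection-matched grouping, where its difference was 1.22 (limma adjusted p = 0.0925). There 1.99% of all genes rose. The 12 were picked by size in these data and both groupings use the same 5 genes, so passing in both is not independent support. The others were Prim1, Gmnn, Rrm2 and Cdc45, described above.

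The 11 large falls described here were smaller than the rises, from -1.54 to -1.01. Syn2, which encodes synapsin II, averaged 1.10, 0.51, 0.72 and 1.04 in high cells and 2.58, 2.96, 2.08 and 1.91 in low cells. The groups did not overlap, and the difference was -1.54 ± 0.27 (limma adjusted p = 0.00143). Dppa4, a chromatin factor of pluripotent cells, averaged 3.65, 4.30, 3.73 and 4.62 in high cells and 5.31, 5.48, 5.25 and 5.06 in low cells, again without overlap, a difference of -1.20 ± 0.32 (limma adjusted p = 0.0252). It did not pass without preparation 1, 2 or 3 (0.0756, 0.101 and 0.0914), and middle cells stood at 3.92 ± 0.69, close to high cells. Tmed3, which works in traffic from the endoplasmic reticulum, differed by -1.45 ± 0.32 (limma adjusted p = 0.007), and Acot13, an acyl-CoA thioesterase, by -1.02 ± 0.24 (0.0125).

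Ift43, a subunit of the intraflagellar transport machinery that builds cilia, averaged 5.26, 5.32, 5.74 and 5.74 in high cells and 6.05, 6.65, 6.98 and 6.74 in low cells. All low means were above all high means, and the difference was -1.09 ± 0.29 (limma adjusted p = 0.0247). Plk1s1, which encodes the centrosomal protein kizuna, differed by -1.11 ± 0.30 (limma adjusted p = 0.028). The others were Syce1l (-1.33 ± 0.30), Ppfibp2 (-1.20 ± 0.32), Ssbp2 (-1.16 ± 0.35), Ppil6 (-1.16 ± 0.27) and Gyltl1b (-1.01 ± 0.30). Ppfibp2 and Ssbp2 did not pass in the detection-matched grouping (limma adjusted p = 0.0953 and 0.0568), and the other 9 did (0.653% of all genes fell). As for the rises, this is not independent support. Syn2 alone of the 11 passed in all 4 fits that left out 1 preparation. Syn2 and Ppfibp2 overlap exons of Timp4 and Cyb5r2 on the opposite strand.

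Of 30 cytosolic ribosomal protein genes 1 rose and 1 fell (7.57% and 0.48% of all genes), with a median of 0.01, which was -0.26 once means were centred. Rpl4 averaged 10.49, 10.56, 10.43 and 10.46 in high cells and 10.72, 10.95, 10.80 and 10.78 in low cells, a small fall without overlap (difference -0.33 ± 0.09, limma adjusted p = 0.0279; 0.0524 in the detection-matched grouping, and 0.109 to 0.142 without preparation 2, 3 or 4). Of 25 nuclear genes of oxidative phosphorylation 7 rose and 0 fell (7.57% and 0.48% of all genes), with a median of 0.38, and 4 rose in the detection-matched grouping (1.99% of all genes). Ndufa4 and Ndufb8, of the respiratory chain, rose by 0.78 ± 0.12 and 0.82 ± 0.12 (limma adjusted p = 0.000275 and 0.000252). Ndufa4 averaged 10.38, 9.87, 9.94 and 9.95 in high cells and 9.34, 9.30, 9.36 and 9.04 in low cells. Of 15 glycolysis genes 1 rose (7.57% of all genes), Aldoa, by 1.25 ± 0.29 (limma adjusted p = 0.0115). The median of the list was 0.15, or -0.11 once means were centred. Of 13 p53 targets and apoptosis genes 1 rose (7.57% of all genes), Trp53 itself, by 1.38 ± 0.36 (limma adjusted p = 0.022). Trp53 did not pass in the detection-matched grouping (limma adjusted p = 0.754) or without preparation 2 or 3 (0.082 and 0.104). Of 13 immediate early genes, which dissociation can induce, 1 rose (7.57% of all genes), Fos, and the median was 0.18, close to the 0.20 of all genes.

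The 2 groups were then compared in EGFP brightness, which was measured on the chip and was not used in the score. From Q1 to Q4, the 98 high cells comprised 30, 23, 21 and 24 cells, and the 98 low cells 22, 25, 30 and 21. The quartiles held 79, 78, 71 and 72 cells. High cells made up 39.2% ± 17.1 (SD, n = 4) of the cells of Q1, 28.9% ± 9.4 of Q2, 29.02% ± 11.6 of Q3 and 32.6% ± 9.2 of Q4. Low cells made up 27.6% ± 7.9, 31.9% ± 2.7, 42.9% ± 12.7 and 29.4% ± 3.1. Both groups were thus drawn from the whole brightness range.

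The share of high cells changed by 1.96 percentage points per quartile towards the bright end, with the sign of that slope in 2 of 4 preparations (exact permutation of quartile labels within preparations, two-sided, p = 0.571, adjusted p = 0.856 over 3 relations). For low cells the slope was -1.63 points (exact p = 0.555, adjusted p = 0.856) and for the mean score 0.01 (exact p = 0.928). From Q1 to Q4 the mean score was 4.05 ± 0.51, 3.59 ± 0.50, 3.56 ± 0.55 and 4.03 ± 0.62 (SD, n = 4). A slope cannot register a difference between the outer and the middle quartiles, which was not tested. In preparation 3 the mean score was highest in Q3, at 3.82. The 4 preparations did not share an order. In preparation 1, 11 of 17 Q1 cells were high and 2 of 15 Q3 cells, and its slope was 9.84 points, while the other 3 slopes were -1.12, 2.86 and -3.74. Without preparation 1 the mean slope was -0.669. In preparation 4 the highest share of high cells was in Q4, at 42.1%. A slope of a few points per quartile was within the spread between preparations, whose SD was 5.92 points for high cells and 3.12 for low cells.

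**Figure D5:**
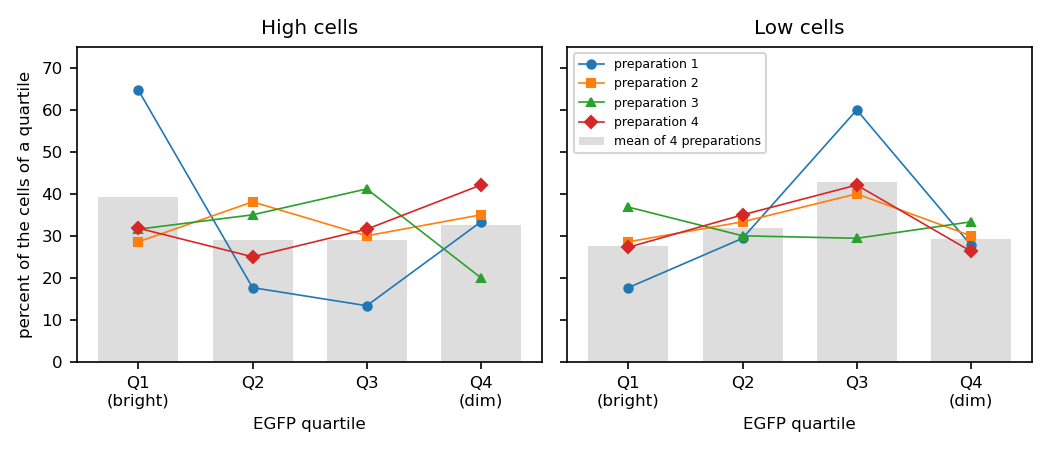
Share of the cells of each EGFP quartile that were high cells (left) and low cells (right), from the bright quartile Q1 to the dim quartile Q4. Bars are means of 4 preparations and lines are single preparations. Preparation 1 peaks at 64.7% high cells in Q1 and the other preparations do not.

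Whether the difference between high and low cells itself differed between bright (Q1 and Q2) and dim (Q3 and Q4) cells was tested by an interaction in limma on 24 means. Of 10406 genes 0 passed (0%), with 670 at an unadjusted p under 0.05 and a smallest adjusted p of 0.251. That smallest value belonged to Stra8, whose high minus low difference was 2.94 smaller in bright than in dim cells (interaction -2.94). In the same direction the next smallest p belonged to Coa5 (-3.08), Emc6 (-2.32) and Sohlh1 (-2.33), and in the other the named genes were Zfp946 (1.48), Fam3b (2.53) and Cd9 (2.29). With these means of 8 to 17 cells, no gene's response to the score was detectably different between bright and dim cells.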

How the data were processed

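Single adult mouse spermatogonia were captured on C1 chips, and the deposited table holds 1 column per cell for 300 cells and 23354 gene names. The deposited values were taken as FPKM, since the file header names no unit and the submitters' processing notes name Cufflinks and TopHat, FastQC and Picard, and the builds mm10 and GRCm38 (versions not given in the sources used here). The authors' read counts per cell are not known from the values, so depth is given only as relative, and no counting interval is given. FPKM summed to 348305 to 682985 per cell, and genes at 1 FPKM or more numbered 2934 to 7817. No 2 columns were identical, and 0 columns lacked a sample.

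Genes at 1 FPKM or more in at least 30 cells were tested, apart from the 5 genes of the score. Log2(FPKM + 1), with a pseudocount of 1, was averaged over the cells of each preparation and score group. Differences are on that scale, which understates changes of low genes. Means of 22 to 28 cells were fitted with limma 3.58.1 (R 4.3.3; trended, robust empirical Bayes), with preparation as a block and Benjamini-Hochberg adjustment over all 10406 genes. The block rests on the labels, as high and low cells of a preparation share animals. Deviations of means of the same preparation correlated at a median of 0.17, and of different preparations at -0.06. Other values were computed with Python 3.11.15.

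The groups, the gene lists and the tests were chosen with earlier results of these data known. The genes named were those of the score, a panel of spermatogonial and cell cycle genes, the 12 largest differences in each direction outside the mitotic lists among genes that passed with 1 sign in 4 preparations (predicted genes skipped), up to 4 members of each list by smallest p, and the 3 smallest p in each direction for the interaction. Opposite-strand neighbours were named from the annotation, and a few genes that met the rule are not reported here. Alternatives changed the block, scaling, filter, pseudocount, averaging, size of the groups, the score, the fit, the cells and the preparations used. Promoters came from RefSeq (GRCm38.p6), with several per gene in some cases, and opposite-strand overlaps from GENCODE vM21.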

Additional observations from a re-analysis of the deposited data

Results flagged for a closer look

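In 5 of 153 named values the high minus low difference of 1 preparation lay far from the other 3 (its gap to the nearest other value took more than 0.829 of the whole range, Dixon's 95% critical value for 4 samples). Chance flags about 1 in 20 groups.

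Cdc20, the co-activator of the anaphase-promoting complex, differed by 3.70 in preparation 1 and by 2.29 to 2.52 in the others, so its direction was shared. Hmgb2 differed by 1.09 in preparation 4 and by 1.65 to 1.74 in the others, also in 1 direction. Sohlh1, a transcription factor of differentiating spermatogonia, differed by -1.84 in preparation 1 and by -0.08 to 0.26 elsewhere, and its mean difference did not pass. Coa5, an assembly factor of cytochrome c oxidase, differed by 0.97 in preparation 1 and was negative in the other 3. Fcer1g, a leukocyte marker, differed by -0.071 in preparation 4 and by 0.50 to 0.57 in the others.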

How the results depend on the processing

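Genes higher and lower in high cells numbered 788 and 50. Counts that moved by over 1.5 times were 104 and 4 without the preparation as a replicate block, 253 and 201 with means centred on their median, 0 and 0 with genes detected as a covariate, 457 and 27 with cells cut into 2 groups in place of 3, 289 and 8 without an expression filter, and 100 and 24 with the log2 of the mean FPKM. With cells grouped by the score after regression on genes detected 207 were higher. Lower genes numbered 89 with the cells cut into 4 groups, 28 without trended and robust fitting, 31 and 32 with a score without Top2a or Plk1. Leaving out 1 preparation gave 377 to 538 higher and 11 to 34 lower genes. The cause of these moves was not tested. The difference in genes detected was 527.2 at 5 FPKM or more and 506.3 with 2 groups, in place of 673.8, and that in the share of Stra8 cells was 11.4 points at 5 FPKM, in place of 18.2.

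With genes detected as a covariate, 15 of the named genes that passed at first changed sign, all with adjusted p of 0.999 (limma): Tuba3b (-0.22), Cdkn3 (-0.39), Syce1l (0.49), Ssbp2 (0.73), Ift43 (0.61), Gyltl1b (0.94), Anapc5 (-0.65), Tuba1c (-0.16), Fancd2 (-0.45), T (1.12), Crabp1 (-1.14), Hormad1 (-0.84), Rpl30 (-0.76), Aldoa (-1.33) and Trp53 (-1.48). In that fit 65 more named genes no longer passed. Leaving out 1 preparation cost 29 named genes their call in at least 1 of 4 fits and gave 8 a call, among them Nanos3 (-1.52, limma adjusted p = 0.0391) and Neurog3 (-0.72, 0.043) without preparation 3, Mdm2 (1.26, 0.0478) without preparation 3 and Bcl2l1 (-1.30, 0.0489) without preparation 2. FPKM values without counts limit what can be said of low genes, and 4 preparations limit the exact sign-flip test to a smallest p of 0.125.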
